A study of Mus musculus with 8 samples.

Results

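The clustered histone genes are the protein-coding genes that encode the core and linker histones in tandem arrays, and 65 of the 48709 genes in the deposited count table belong to them. They were chosen by name: a row was a member where its Ensembl identifier, without the version, carries in GENCODE M21 a protein-coding symbol that starts with Hist1h, Hist2h, Hist3h or Hist4h. M21 lists 67 such symbols, and *Hist1h2bm* and *Hist1h2bh* were not analysed here. By cluster, the members comprised 52 genes of Hist1 on chromosome 13, 10 of Hist2 on chromosome 3, 2 of Hist3 on chromosome 11 and 1 of Hist4 on chromosome 6. By histone type, they comprised 6 genes for H1, 18 for H2A, 16 for H2B, 12 for H3 and 13 for H4.

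RNA was sequenced from 8 lung tumors of the Cre-dependent *K* mouse model, on a mixed B6J/129S4vJae background. All tumors were started in the airway with the lentiviral vector LentiCRISPRv2Cre, which delivers Cre, Cas9 and an sgRNA. In the 4 *K-Ctrl* tumors the sgRNA targeted *GFP*, which these mice lack, and in the 4 *K-Setd2KO* tumors it targeted *Setd2*, which encodes the methyltransferase that trimethylates lysine 36 of histone H3. The comparison asks which transcripts differ between tumors with and without a guide against *Setd2*. Age was not given in the labels, and the design text speaks of flash-frozen whole tumors while the extraction label speaks of cell lines. Whole tumors also hold stromal, vascular and immune cells, so fewer cells of a type and less RNA per cell cannot be told apart. Nothing in the labels shows which tumors came from separate mice, so p-values measure the spread between these 8 samples.

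Histones package DNA into nucleosomes, in which H2A, H2B, H3 and H4 form the core and H1 binds the linker DNA. Most clustered histone genes are transcribed in S phase, when new chromatin is made, and their mRNAs are the only known metazoan mRNAs that normally end without a poly(A) tail: the stem-loop binding protein SLBP holds a stem-loop after the stop codon, and the U7 small nuclear ribonucleoprotein directs cleavage just beyond it. Some of these genes can also be read through the stem-loop to a downstream poly(A) signal, which gives a longer, polyadenylated mRNA that is kept in differentiated and non-dividing cells. The libraries were made with a stranded mRNA kit that selects poly(A) RNA, which favors transcripts that carry a tail.

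The stem-loops of the members that were counted best are shown first, because they mark where a tailless histone mRNA would end. Each was read from the GENCODE M21 transcript of the gene (GRCm38), in the sense direction, with the 16-letter match in capitals.
Hist1h1c: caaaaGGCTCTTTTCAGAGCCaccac
Hist3h2a: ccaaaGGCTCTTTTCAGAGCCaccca
Hist1h2be: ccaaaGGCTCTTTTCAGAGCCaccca
Hist1h2bg: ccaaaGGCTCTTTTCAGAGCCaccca
Hist1h4i: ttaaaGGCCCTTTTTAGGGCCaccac
Hist2h4: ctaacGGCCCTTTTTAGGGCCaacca

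The motif searched was, without a break, the arm GGNNCT, the loop TTTN and the arm NGNGCC, 16 letters in which N is any base, on both strands, within 100 bases after the stop codon. Over all coding transcripts of a gene, it was found in 42 of 52 clustered histone genes of M21 with an annotated stop codon and 3' sequence (80.8%), against 2 of 20914 other protein-coding genes (0.01%), which were *H2afx* and *H2bfm*. No match lay on the reverse strand. In the longest coding transcript alone, which the following values use, 39 of the 65 members held the motif, in 5 forms. Only 50 of the 65 had at least 16 annotated bases after the stop codon, and the others could not hold it. *Hist1h2bp* held it only in a shorter transcript, and *Hist1h2bh* and *Hist1h2bm*, which make up the rest of the 42, are in M21 but not among the members. The form with capitals as in *Hist1h1c* occurred in 23 members, whereas *Hist1h4i* and *Hist2h4* shared a form found in no other member. The stem-loop began 24 bases after the stop codon in *Hist1h1c* and 41 bases after it in *Hist3h2a*. The annotated transcripts of *Hist1h2bc* and *Hist2h2be* held no match in that window.

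The ends of the longer transcripts are shown next, because they hold the hexamer that directs cleavage and polyadenylation. Capitals mark AATAAA or its common variant ATTAAA within the last 50 bases of the M21 transcript.
Hist1h1c: atgcttctAATAAAaagcgttt
Hist2h2be: ttattattAATAAAgttaccga
Hist3h2a: atatgcccAATAAAataagagt
Hist2h4: atacataaAATAAAatcttaaa
Hist1h2be: tgttccttATTAAAgcattcct
Hist1h4i: ctgtttacATTAAAagtattct

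A hexamer was present in that window in 17 of 65 members, AATAAA in 14 and ATTAAA in 3. Members whose annotated transcript ends at or near the stop codon could show none past it. These sites are matches in the annotation and are not measured 3' ends. In the deposited table, the counted exons ran 840 bases past the end of the stem-loop in *Hist1h1c*, 1643 bases in *Hist3h2a*, 1257 in *Hist2h4* and 330 in *Hist1h4i*, but only 26 in *Hist1h2bg*.

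The libraries held between 5806599 counts (*K-Setd2KO* replicate 4) and 21290402 counts (*K-Ctrl* replicate 3), so that 3 counts, the limit that a count of 0 allows, corresponded to 0.517 and 0.141 CPM of the unscaled library total. All other CPM values are relative to library totals scaled with TMM factors. *Setd2* itself had 153, 138, 132 and 138 CPM in *K-Ctrl* tumors and 145, 121, 124 and 153 in *K-Setd2KO* tumors. The groups overlapped, with a log2 difference of −0.05 ± 0.115 (SE) and an edgeR adjusted p of 0.824; counts over the whole gene do not show whether an edit is present. Across all 14929 genes that passed the low-count filter, the edgeR quasi-likelihood test with Benjamini-Hochberg adjustment called 1897 (742 higher and 1155 lower in *K-Setd2KO*). Leaving out 1 tumor at a time moved that count between 763, without *K-Ctrl* replicate 3, and 2058, without *K-Setd2KO* replicate 2, and it was 938 without *K-Ctrl* replicate 1, 1126 without *K-Ctrl* replicate 2 and 1011 without *K-Setd2KO* replicate 3.

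Clustered histone genes made up a very small share of the counts. Their sum was 6552 counts over the 8 tumors. The share was 0.00747%, 0.00677%, 0.00639% and 0.00512% of all counts in *K-Ctrl* replicates 1 to 4. In *K-Setd2KO* replicates 1 to 4 it was 0.00420%, 0.00702%, 0.00477% and 0.00517%. The lowest and the highest tumor had Wilson 95% intervals of 0.00392% to 0.00449% and 0.00706% to 0.00790%; such intervals and the limits for a count of 0 cover counting error only. The group means were 0.00644% ± 0.000984 and 0.00529% ± 0.00122 (SD, n = 4), and the groups overlapped: *K-Setd2KO* replicate 2 lay above 3 of the *K-Ctrl* tumors and *K-Setd2KO* replicate 4 above 1. Without *Hist1h1c*, the member with the most counts, they did not overlap. The share was then 0.00328% to 0.00451% in *K-Ctrl* tumors and 0.00204% to 0.00274% in *K-Setd2KO* tumors. That remainder still held *Hist1h2bc*, the next member by counts. Its *K-Ctrl* values (9.01 to 18.5 CPM) all lay above its *K-Setd2KO* values (2.58 to 6.85 CPM). The H2B sums overlapped once *Hist1h2bc* was left out. The share without both genes was not computed, so a gap over the other members is not shown.

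Most members were counted rarely or not at all. At least 1 count in any tumor was seen for 44 of 65 members (67.7%), compared with 81.2% of protein-coding genes, and 21 had 0 counts in all 8 tumors. Only 12 reached 10 counts in some tumor, and 5 had a mean of at least 1 CPM. The low-count filter kept 8 members (12.3%), compared with 61.6% of protein-coding genes (13354 of 21695). The first 4 members by count, *Hist1h1c*, *Hist1h2bc*, *Hist2h2be* and *Hist3h2a*, held 87.5% of all member counts, and the 8 that passed held 94.7%.

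The histone types were counted very unevenly. All 6 H1 genes had at least 1 count, and together they held 3145 counts, 48.0% of the total, of which *Hist1h1c* gave 3063. Counts were seen for 11 of 16 H2B genes (2224 counts, 33.9%), 7 of 18 H2A genes (785 counts, 11.98%), 12 of 13 H4 genes (305 counts, 4.66%) and 8 of 12 H3 genes (93 counts, 1.42%). H3, the substrate of SETD2, was the least counted type, and none of its 12 members passed the filter. The best counted H3 gene, *Hist2h3c2*, had 59 counts, with 12, 7, 13 and 10 in *K-Ctrl* and 8, 3, 0 and 6 in *K-Setd2KO* tumors.

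Within a cluster, 1 or a few genes carried the counts. Hist1 gave 4828 counts (73.7%), and 37 of its 52 members were counted. In Hist2, 4 of 10 members were counted and gave 943 counts, of which *Hist2h2be* held 775. Both Hist3 genes were counted, *Hist3h2a* with 751 counts and the H2B gene *Hist3h2ba* with 15. *Hist4h4*, the single Hist4 gene, had 15 counts although its counted exon length was 2863 bases.

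In *K-Ctrl* tumors 42 members had at least 1 count, and in *K-Setd2KO* tumors 30 did. By type, 5 H1, 7 H2A, 11 H2B, 7 H3 and 12 H4 genes were counted in *K-Ctrl*, and 5, 4, 7, 4 and 10 in *K-Setd2KO*. By cluster, 35 Hist1 genes were counted in *K-Ctrl* and 23 in *K-Setd2KO*, while the same number of Hist2 (4), Hist3 (2) and Hist4 (1) genes was counted in both. The 14 members counted only in *K-Ctrl* had 46 counts in all, and the 2 counted only in *K-Setd2KO*, *Hist1h1b* and *Hist1h3h*, had 5. *Hist1h2bp* had the most of them, 10 counts in 2 *K-Ctrl* tumors.

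The 3 largest libraries held the 3 highest numbers of members counted. In *K-Ctrl* replicates 1 to 4, 30, 21, 33 and 17 members had at least 1 count, and in *K-Setd2KO* replicates 1 to 4, 27, 17, 14 and 13 did. At the size of the smallest library, the expected numbers were 21.3, 17.3, 23.0 and 14.9 in *K-Ctrl* and 16.7, 13.4, 11.7 and 13 in *K-Setd2KO*. At that common depth the means were 19.1 ± 3.68 and 13.7 ± 2.11 (SD, n = 4), and the groups still overlapped, because *K-Setd2KO* replicate 1 lay above *K-Ctrl* replicate 4.

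**Figure D1:**
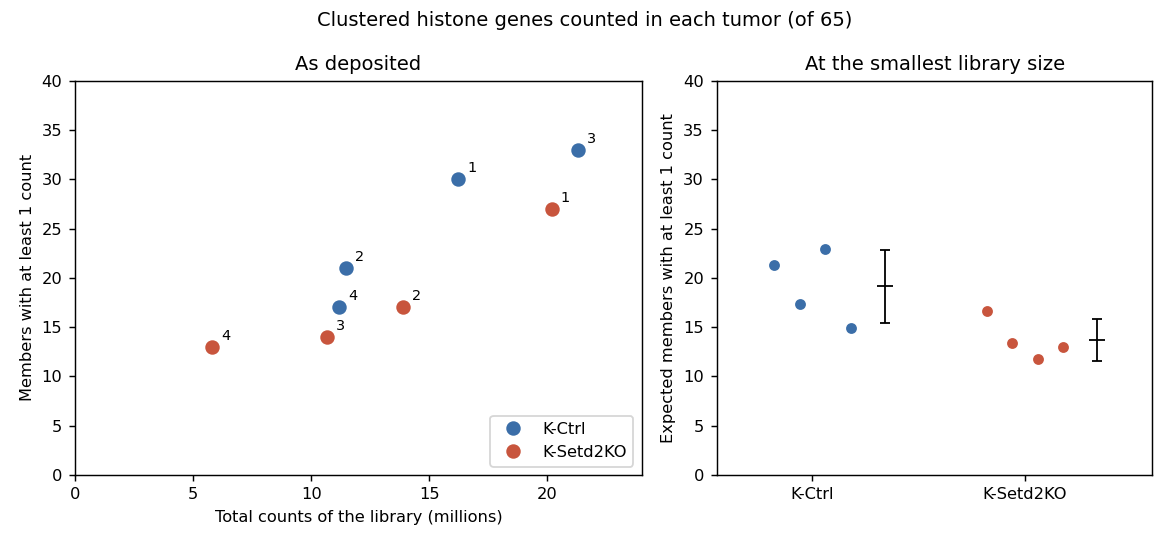
Left, members with at least 1 count in each tumor (vertical axis) against the total counts of its library (horizontal axis), with replicate numbers beside the points. Right, the number expected at the smallest library size, 1 point per tumor, with mean and SD as black bars; *K-Ctrl* runs from 14.9 to 23.0 and *K-Setd2KO* from 11.7 to 16.7.

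Most counts fell on members that were long in the count table. Of the 44 members with at least 1 count, however, 27 had a summed exon length of up to 700 bases. The 20 members with a summed exon length over 700 bases held 96.0% of the counts, and 7 of the 8 members that passed the filter were among them; the exception was *Hist1h2bg*, with 477 bases. The 45 shorter members held 263 counts, with a median of 2 counts each, compared with 23 for the longer members. Among members with a stem-loop and a counted end that could be placed, the 10 whose exons ran at least 100 bases past it held 4124 counts, and the 28 with a shorter extension held 288. Their medians were 37 and 2 counts, and *Hist1h1c* (3063) and *Hist3h2a* (751) made up most of the 4124. A hexamer near the transcript end was annotated for 17 members, which held 77.3% of the counts, and for 6 of the 8 that passed the filter. *Hist1h2bc* was the best counted member without such a hexamer.

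Sequence shared between copies ran beside the counts as well. For each member, the share of 75-base windows of its M21 transcripts that occur in no other gene was computed, since reads from shared windows cannot be assigned to 1 gene. Of the 18 members with at most 25% unique windows, 15 had 0 counts, and of the 18 with over 75%, 1 had. The 3 long members with 0 counts, *Hist2h3c1*, *Hist1h2bq* and *Hist1h2br*, had 0%, 3.92% and 12.4% unique windows, and all 3 end in AATAAA. Among 8 members that were short but at least 75% unique, 7 were counted, with 69 counts in all, compared with 4282 counts for the 10 that were long and at least 75% unique. Uniqueness covers whole M21 transcripts, and some run well past the counted exons. The longest transcript had 2482 bases against 476 counted in *Hist1h2ac*, 1138 against 393 in *Hist1h4d*, and 7425 against 744 in *Hist1h1d*. The counted part of such members was not shown to be at least 75% unique. How the authors counted reads with several matches is not given in the sources used here, so the counts of members with close copies are uncertain, and the part of length, sequence sharing and transcript ends in the counts was not tested.

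**Figure D2:**
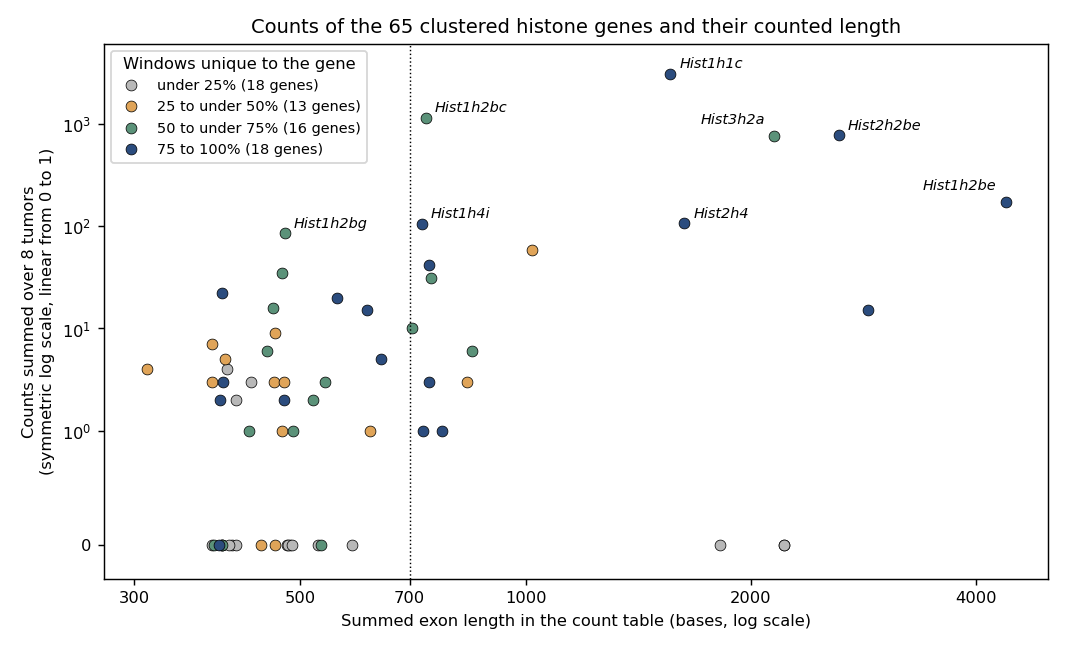
Counts summed over the 8 tumors (vertical axis, symmetric log scale) against the summed exon length in the count table (horizontal axis, bases, log scale), 1 point per member, colored by the percentage of 75-base windows unique to the gene. The dotted line marks 700 bases; right of it, the only members at 0 counts are the 3 with at most 12.4% unique windows.

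In a few cases, neighboring H2A and H2B genes that start back to back were counted very differently. In 12 such divergent pairs, the start sites lay 176 to 306 bases apart. The H2B genes of these pairs had 2033 counts, most of them from *Hist1h2bc* and *Hist2h2be*, and the H2A genes 29. The H2B gene had more counts in 7 pairs, the H2A gene in 1, and both were at 0 in 4. *Hist1h2ac* had 2 counts, while *Hist1h2bc*, whose start lies 251 bases away, had 1147. The counted exon of *Hist1h2ac* has 476 bases and ends 28 bases past its stem-loop. Its longest M21 transcript has 2482 bases and runs 2010 past it, so a longer form would be counted only in part. *Hist2h2ac* had 2 counts, and *Hist2h2be*, at 239 bases, had 775. The divergent partner of *Hist1h2bg*, *Hist1h2ae*, was closer, with 16 counts against 85 at 176 bases. In the pair with more H2A counts, *Hist1h2ad* had 9 and *Hist1h2bf* 3.

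**Figure D3:**
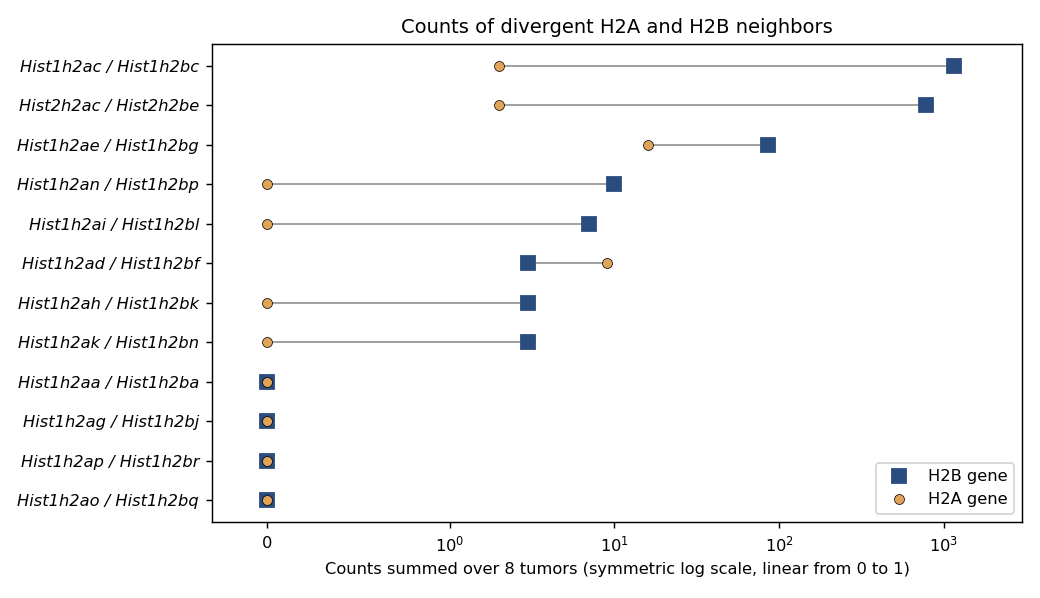
Counts summed over the 8 tumors (horizontal axis, symmetric log scale) for the H2A gene (circle) and the H2B gene (square) of each of 12 divergent pairs (vertical axis). *Hist1h2bc* and *Hist2h2be* stand at 1147 and 775 counts while their H2A neighbors stand at 2.

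Of the 8 members tested for a difference between genotypes, 1 was called at an adjusted p under 0.05, and it was lower in *K-Setd2KO*; over all genes tested, 12.7% were called, 7.74% lower and 4.97% higher, shares that rest on the count of 1897 and move with it. The median log2 difference was −0.38 over the 8 members and 0.03 over all genes tested, with 6 members lower and 2 higher. The median moved to −0.66 without *K-Ctrl* replicate 2 (9 members tested) and to −0.61 without *K-Setd2KO* replicate 4, to −0.66 with limma voom, and to −0.0128 over the 4 members with at least 10 counts in every tumor. Without the low-count filter it was −1.11 over 44 members and −0.0211 over all genes, where the fitted values of members with few counts depend on the prior count; 3 of the 44 had an unadjusted p under 0.05. The 4 and 4 values did not overlap for 2 members, against 20.3% of all genes tested. None of these counts bears on the 57 members that did not pass the filter.

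*Hist1h2bc* (chromosome 13, 23684199 to 23692488, plus strand, 2 exons) encodes a core H2B. It had 18.5, 14.7, 14.5 and 9.01 CPM in *K-Ctrl* tumors and 5.80, 5.74, 2.58 and 6.85 in *K-Setd2KO* tumors. The lowest *K-Ctrl* tumor, replicate 4, lay above the highest *K-Setd2KO* tumor, also replicate 4, so the groups did not overlap. Means were 14.2 ± 3.91 and 5.24 ± 1.84 CPM (SD, n = 4). The fitted log2 difference was −1.44 ± 0.331 (SE), with an edgeR adjusted p of 0.0249. Without *K-Ctrl* replicate 1, 2 or 3, the call was lost, with adjusted p of 0.0670, 0.0564 and 0.0671 and log2 differences of −1.29, −1.43 and −1.43. Expression of sex-linked genes read *K-Ctrl* replicate 2 and *K-Setd2KO* replicates 1, 2 and 4 as female, so sex and genotype were partly aligned. Among those female tumors the levels were 14.7 CPM against 5.80, 5.74 and 6.85 CPM, and among the male tumors 18.5, 14.5 and 9.01 CPM against 2.58 CPM. With sex as a term, the log2 difference was −1.82, with an edgeR adjusted p of 0.0293. The windows of *Hist1h2bc* were 72.9% unique.

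Several cell type markers differed in the same direction as *Hist1h2bc*. Over all genes tested, 7.74% were called lower and 4.97% higher in *K-Setd2KO*, and the calls on each list are to be read beside these shares. Leukocyte markers were called lower for 4 of 6 genes, and their summed level ran from 971 to 1745 CPM in *K-Ctrl* and from 517 to 746 CPM in *K-Setd2KO*. Macrophage markers were called lower for 4 of 6 genes as well, with 1952 to 6018 CPM against 351 to 2475 CPM. Endothelial markers were called lower for 1 of 6 genes, with 421 to 1460 CPM against 155 to 410 CPM, and fibroblast markers for 1 of 6, with 497 to 1121 CPM against 141 to 583 CPM. No lymphocyte and B cell, neutrophil or erythroid marker was called by edgeR (6, 5 and 5 tested), although 3, 0 and 5 of them were lower at an unadjusted p under 0.05. The share of all genes under that unadjusted threshold was not computed. The lymphocyte and B cell markers summed to 18.1 to 84.0 CPM in *K-Ctrl* tumors and 14.4 to 31.7 in *K-Setd2KO* tumors. Neutrophil markers summed to 15.9 to 20.4 CPM against 13.8 to 56.0 CPM, and erythroid markers to 151 to 807 CPM against 76.4 to 203 CPM. Of 9 alveolar type 2 and lung adenocarcinoma epithelial markers, 3 were called higher and 1 lower, with sums of 39869 to 59850 CPM and 48368 to 67070 CPM. No marker on any list was at 0 in all tumors. The part of cell composition in the *Hist1h2bc* difference was not tested.

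*Hist1h2be* (chromosome 13, 23583742 to 23621124, minus strand) encodes another core H2B and was the second member whose groups did not overlap. Its levels were 2.83, 1.93, 1.89 and 1.43 CPM in *K-Ctrl* tumors and 0.770, 0.994, 1.02 and 0.856 in *K-Setd2KO* tumors. All *K-Ctrl* values were above all *K-Setd2KO* values, but the counts were low, with 16 to 46 per *K-Ctrl* tumor and 5 to 15 per *K-Setd2KO* tumor. The log2 difference of −1.15 ± 0.358 (SE) did not pass, with an edgeR adjusted p of 0.0652. DESeq2 called it, with a log2 difference of −1.17 and an adjusted p of 0.0465. The span of *Hist1h2be* in M21 overlaps that of the H1 gene *Hist1h1e* on the same strand, which makes its counts uncertain.

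*Hist2h2be* (chromosome 3, 96221119 to 96223738, plus strand), 1 of 2 H2B genes of the Hist2 cluster, went the other way in sign. It had 6.22, 4.12, 5.59 and 9.19 CPM in *K-Ctrl* tumors and 9.35, 6.43, 6.92 and 10.3 in *K-Setd2KO* tumors. The groups overlapped through *K-Ctrl* replicate 4. The log2 difference was 0.39 ± 0.292 (SE), with an edgeR adjusted p of 0.406. It ranged from 0.23, without *K-Ctrl* replicate 2, to 0.63, without *K-Ctrl* replicate 4, and did not pass in either fit. All of its 75-base windows were unique to it.

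*Hist1h2bg* (chromosome 13, 23571408 to 23571884, plus strand), the shortest member tested, had 0.616, 0.840, 1.02 and 0.714 CPM in *K-Ctrl* tumors and 0.462, 0.994, 0.554 and 1.20 in *K-Setd2KO* tumors. The highest and the lowest value both came from *K-Setd2KO*. Its log2 difference was −0.05 ± 0.449 (SE), with an edgeR adjusted p of 0.95.

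Summed over all 16 H2B genes, the level was 28.7, 22.1, 24.01 and 20.6 CPM in *K-Ctrl* tumors and 16.5, 14.5, 11.1 and 19.2 in *K-Setd2KO* tumors, with no overlap. Without *Hist1h2bc* the same sums were 10.2, 7.40, 9.51 and 11.6 CPM in *K-Ctrl* tumors and 10.7, 8.80, 8.49 and 12.3 in *K-Setd2KO* tumors. Those sums overlapped, and *K-Setd2KO* replicate 4 was then the highest tumor. *Hist1h2bc* made up 64.5%, 66.5%, 60.4% and 43.7% of the H2B level in *K-Ctrl* and 35.2%, 39.5%, 23.3% and 35.7% in *K-Setd2KO*.

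**Figure D4:**
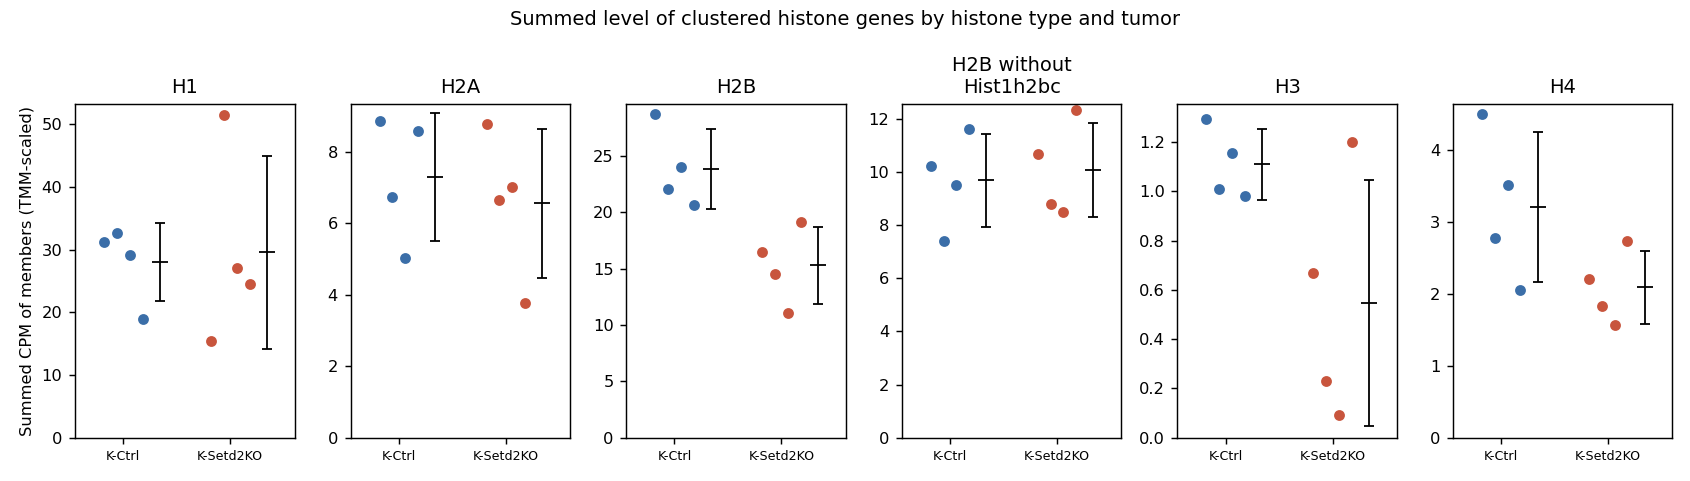
Summed CPM of the members of each histone type (vertical axes, each from 0) in *K-Ctrl* and *K-Setd2KO* tumors, 1 point per tumor in the order of the replicate numbers, with mean and SD as black bars. The H2B sums do not overlap, and they do once *Hist1h2bc* is left out.

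*Hist1h1c* (chromosome 13, 23738808 to 23740367, plus strand) encodes the linker histone H1.2 and had the most counts of any member. It had 29.5, 32.2, 28.5 and 18.4 CPM in *K-Ctrl* tumors and 15.0, 49.8, 26.9 and 24.3 in *K-Setd2KO* tumors. *K-Setd2KO* held both the lowest and the highest tumor, replicates 1 and 2. Means were 27.2 ± 6.05 and 29.0 ± 14.8 CPM (SD, n = 4). The log2 difference was 0.09 ± 0.339 (SE), with an edgeR adjusted p of 0.878. Without *K-Setd2KO* replicate 2 it was −0.31, with an adjusted p of 0.461.

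The other 5 H1 genes had between 1 and 42 counts over the 8 tumors and did not pass the filter. *Hist1h1d*, which encodes H1.3, had 11, 2, 8 and 1 counts in *K-Ctrl* and 0, 19, 1 and 0 in *K-Setd2KO*. Its single highest tumor, *K-Setd2KO* replicate 2, was the one in which *Hist1h1c* was highest. *Hist1h1t*, the testis-specific H1 gene, had 1 count.

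*Hist3h2a* (chromosome 11, 58954685 to 58956830, plus strand), the only H2A gene tested, had 8.37, 6.47, 4.43 and 8.12 CPM in *K-Ctrl* tumors and 8.58, 6.58, 7.01 and 3.77 in *K-Setd2KO* tumors. The groups overlapped over nearly their whole ranges. The log2 difference was −0.06 ± 0.310 (SE), with an edgeR adjusted p of 0.914. Its span overlaps *Trim17* on the same strand and *Gm44313* on the other, so its counts are uncertain.

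Both H4 genes that passed were at or near 1 CPM. *Hist1h4i* (chromosome 13, 22040636 to 22041362, minus strand) had 1.79, 1.01, 1.25 and 0.892 CPM in *K-Ctrl* tumors and 0.360, 1.07, 0.0923 and 0.856 in *K-Setd2KO* tumors. *Hist2h4* (chromosome 3, 96261682 to 96263311, minus strand) had 1.72, 1.26, 0.923 and 0.803 CPM in *K-Ctrl* tumors and 0.976, 0, 0.831 and 1.20 in *K-Setd2KO* tumors. The groups overlapped for both, and the 0 of *Hist2h4* came from a library of 13897361 counts. Log2 differences were −1.10 ± 0.620 (SE) for *Hist1h4i*, with an edgeR adjusted p of 0.269, and −0.69 ± 0.759 (SE) for *Hist2h4*, with an adjusted p of 0.580. Without *K-Setd2KO* replicate 2, the tumor with the 0, they were −1.65 for *Hist1h4i* and −0.26 for *Hist2h4*. *Hist2h4* was also at −0.45 without *K-Ctrl* replicate 1 and at −1.40 with limma voom, and none of these passed.

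**Figure D5:**
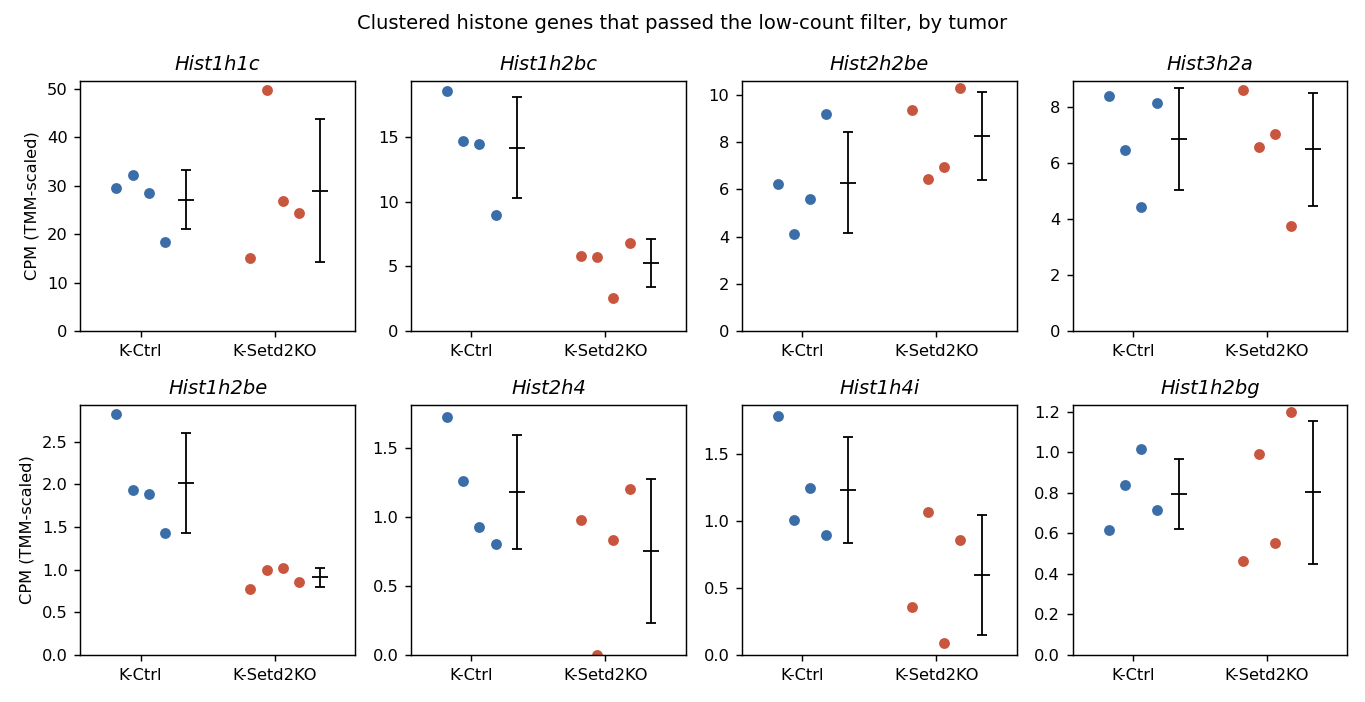
CPM (vertical axes, each from 0) of the 8 members that passed the low-count filter, 1 point per tumor in the order of the replicate numbers, with mean and SD as black bars. The 2 genotypes do not overlap for *Hist1h2bc* and *Hist1h2be*, and they overlap for the other 6.

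Per length, the order of the members changed. *Hist1h1c* had 17.997 CPM per kilobase and *Hist1h2bc* 13.2 over all tumors. *Hist3h2a* and *Hist2h2be* followed with 3.11 and 2.77 CPM per kilobase, then *Hist1h2bg* with 1.68 and *Hist1h4i* with 1.26. In *K-Ctrl* alone *Hist1h2bc* stood at 19.3 and *Hist1h1c* at 17.4 CPM per kilobase, and in *K-Setd2KO* alone they stood at 7.12 and 18.6.

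Histone variants that are also made outside S phase come from genes outside the clusters, mostly with polyadenylated mRNAs, and 11 of them were measured beside the clustered genes. All 11 passed the filter. Together they made up 0.0914%, 0.0876%, 0.0872% and 0.0900% of counts in *K-Ctrl* and 0.0935%, 0.140%, 0.144% and 0.105% in *K-Setd2KO*. The 2 groups did not overlap. The variant with the highest level was *H3f3b*, with 475, 454, 430 and 434 CPM in *K-Ctrl* tumors. In *K-Setd2KO* tumors it had 471, 849, 832 and 533 CPM. It overlapped between groups and was not called (edgeR adjusted p of 0.0919). The 11 variants together had 12.2 to 17.6 times the counts of the clustered genes in *K-Ctrl* tumors and 19.9 to 30.3 times in *K-Setd2KO* tumors. Per kilobase, the H3.3 gene *H3f3b* reached 188 CPM, compared with 0.550 for *Hist2h3c2*, and the H2A.Z gene *H2afz* reached 40.6 CPM, compared with 3.11 for *Hist3h2a*.

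1 of the 11 variants was called, against 12.7% of all genes tested. It was *H1f0*, which encodes the linker histone H1.0 of differentiated cells. It had 130, 90.8, 86.1 and 126 CPM in *K-Ctrl* tumors and 144, 267, 249 and 150 in *K-Setd2KO* tumors. All *K-Setd2KO* tumors lay above all *K-Ctrl* tumors. The log2 difference was 0.91 ± 0.244 (SE), with an edgeR adjusted p of 0.0414. Of the others, 6 were higher and 4 lower in sign, and the median over the 11 was 0.12.

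Of 27 tested genes that act in S phase, when clustered histone genes are transcribed, 9 were called lower in *K-Setd2KO* and 0 higher, against 7.74% and 4.97% of all genes tested. In all, 26 were lower in sign, and the median log2 difference was −0.62. The leukocyte and macrophage markers were lower in the same tumors, with 4 of 6 called on each list and median log2 differences of −1.54 and −1.72, and their part in the S phase difference was not tested. *Pcna*, the sliding clamp of DNA replication, had 94.8, 84.96, 97.5 and 77.02 CPM in *K-Ctrl* tumors and 47.3, 43.9, 53.5 and 40.2 in *K-Setd2KO* tumors. It fell by 0.94 ± 0.131 (SE) on the log2 scale, with no overlap and an edgeR adjusted p of 0.00643. *Ccne1*, which encodes cyclin E1, had 3.45, 3.698, 3.19 and 4.91 CPM in *K-Ctrl* tumors and 0.976, 0.918, 0.738 and 1.20 in *K-Setd2KO* tumors. For *Ccne1* the groups lay far apart, with a log2 difference of −1.995 ± 0.325 (SE) and an edgeR adjusted p of 0.00876. *Rrm2*, a ribonucleotide reductase subunit, had 22.5, 21.8, 15.3 and 18.03 CPM in *K-Ctrl* tumors and 9.40, 5.58, 7.75 and 10.1 in *K-Setd2KO* tumors. *Mcm3*, a subunit of the replicative helicase, had 32.9, 35.3, 32.9 and 32.6 CPM in *K-Ctrl* tumors and 20.4, 16.8, 15.5 and 25.8 in *K-Setd2KO* tumors. Neither gene's groups overlapped, and they fell by 1.24 and 0.77 on the log2 scale, with edgeR adjusted p of 0.0124 and 0.0230. Whether the S phase genes and the clustered histone genes are tied in these tumors was not tested.

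Of 17 tested factors that make, process or degrade histone mRNA, 1 was called, against 12.7% of all genes tested. It was *Lsm11*, which encodes a protein of the U7 particle. *Lsm11* had 8.62, 6.30, 7.85 and 6.96 CPM in *K-Ctrl* tumors and 3.29, 3.52, 5.26 and 3.08 in *K-Setd2KO* tumors. The groups did not overlap, with a log2 difference of −0.97 ± 0.256 (SE) and an edgeR adjusted p of 0.0388. The median over the 17 was −0.13.

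Among 17 histone chaperones, which carry histones to and from DNA, 1 was called lower and 1 higher, against 7.74% and 4.97% of all genes tested. *Asf1b*, an H3-H4 chaperone of dividing cells, had 6.09, 6.22, 4.57 and 7.14 CPM in *K-Ctrl* tumors and 3.08, 2.68, 2.21 and 3.25 in *K-Setd2KO* tumors. Every *K-Ctrl* value lay above every *K-Setd2KO* value. Its log2 difference was −1.10 ± 0.262 (SE), with an edgeR adjusted p of 0.0284. *Cabin1*, a partner of the H3.3 chaperone HIRA, had 54.1, 71.1, 57.7 and 72.7 CPM in *K-Ctrl* tumors and 83.8, 127.7, 90.4 and 93.3 in *K-Setd2KO* tumors. The *K-Setd2KO* values were all higher, with a log2 difference of 0.63 ± 0.166 (SE) and an edgeR adjusted p of 0.0387.

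Other RNAs that end without a poly(A) tail were also measured. They are 102 to 423 bases long, so low counts cannot separate a missing tail from a short length. How far tailless histone mRNA entered the libraries was not tested. Of 16 such RNAs, including the signal recognition particle, 7SK, Y and RNase P RNAs, 6 were at 0 in all 8 tumors. Their summed counts were 31, 14, 19 and 19 in *K-Ctrl* and 14, 34, 14 and 10 in *K-Setd2KO*. Those sums were 0.0000892% to 0.000191% of all counts in *K-Ctrl* and 0.0000694% to 0.000245% in *K-Setd2KO*, and the ranges overlapped. The only one that passed the filter was *Scarna2*, a guide RNA of Cajal bodies. It had 1.42, 1.01, 0.739 and 1.43 CPM in *K-Ctrl* tumors and 0.514, 1.84, 1.11 and 1.03 in *K-Setd2KO* tumors. Its log2 difference was −0.03 ± 0.474 (SE), with an edgeR adjusted p of 0.972.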

How the data were processed

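RNA-seq of 8 tumors was deposited by the authors as 1 table of raw counts, with no normalization. The submitters' processing notes name STAR 2.5.2b, featureCounts 1.5.0-p1 and GRCm38.p4. The annotation release, strand setting and treatment of multi-mapped reads are not given in the sources used here. Symbols, transcripts and sequences came from GENCODE M21 (GRCm38), which matched 48349 of 48709 identifiers (99.26%); coordinates are those of the table. Members and gene lists were chosen with earlier results of these data known.

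Counts were fitted across all genes in R 4.3.3 with edgeR 4.0.16 (filterByExpr, TMM, robust quasi-likelihood, genotype alone, Benjamini-Hochberg, calls at adjusted p under 0.05), after a test on simulated data. DESeq2 1.42.0 and limma voom 3.58.1 were alternatives. SE is the size of the log2 difference divided by the root of F. Members counted at the smallest library size follow the rarefaction formula. Shares, sums and counts of members have no test. Within each group, pairs of tumors differed with a chi-square of at least 30.5 per degree of freedom, far over sampling noise. Values of every tumor are given for all tested members, and of each list the called genes (at most 4, smallest p first) or else the gene with the smallest p. Cell type markers are given as counts called and summed levels. Other members named were chosen after their values were seen. Uniqueness was computed for 75-base windows. The allele that defines the *K* model is not reported here.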

Additional observations from a re-analysis of the deposited data

How the results depend on the processing

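Over 16 alternatives, the *Hist1h2bc* difference kept its sign, from −1.82 to −1.21 on the log2 scale, with adjusted p from 0.00053 to 0.0671. The number of members called, 1 as reported, ranged from 0 to 1 in edgeR when each tumor was left out in turn (2 or 3 at an unadjusted p under 0.05), and was 2 with DESeq2, which also called *Hist1h2be* (adjusted p 0.0465). The number of genes called over the whole table ranged from 763 to 2058 in the same leave-one-out fits, and was 3194 with DESeq2, 1341 with the replicate block and 1237 with sex, read from expression, as a term. *Hist1h2bc* stayed called with the sex term (adjusted p 0.0293).

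Replicate numbers did not pair the tumors: same-numbered tumors correlated at −0.074, −0.03, 0.191 and −0.023 in their deviations from the group means, and only replicate 3 correlated best with its own number. With the replicate block in edgeR, 0 members were called (2 at an unadjusted p under 0.05, as without the block), and *Hist1h2bc* had a log2 difference of −1.48 with an adjusted p of 0.0543.

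Directions turned for 3 members that were never called. *Hist1h1c* was at −0.0574 with limma voom, at −0.00393 with the replicate block, at −0.0204 with the sex term, and between −0.31 and 0.32 over all alternatives, leave-one-out fits included. *Hist3h2a* was at 0.081 with limma voom and between −0.23 and 0.11 over all alternatives. *Hist1h2bg* ranged from −0.27 to 0.17. The cause was not tested.

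The difference in the share of counts was −0.00115 percentage points. It ranged from −0.00173 to −0.000783 when each tumor was left out. With at least 10 counts in place of 1, a mean of 9.25 members was counted in *K-Ctrl* and 5.75 in *K-Setd2KO*, in place of 25.2 and 17.8. Without the low-count filter 44 members were tested and the same 1 was called, against 1623 of 28425 genes, and 21 members had no count to test.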
